A study of Mus musculus with 41 samples.

Results

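The genes described here are 8 transcripts that mark neural stem and progenitor cells: the SoxB transcription factor genes Sox1, Sox2, Sox3 and Sox21, the intermediate filament genes Nes and Vim, the RNA-binding protein gene Msi1 and the membrane glycoprotein gene Prom1. They were chosen by name, as a set of known neural progenitor genes, but with earlier results of these data known. All 8 were found among the 24410 gene symbols of the deposited count table and among the 15204 symbols with enough counts to be tested. RNA was sequenced from mouse R1-iCas9 embryonic stem cells, in which doxycycline (1 µg/ml) induces Cas9, on the way to ventral spinal cord neural progenitors. Cells of the NT groups carried a non-targeting guide, and the Eed, Ezh2, Brd8 and Nr6a1 groups carried pools of 5 synthetic guides against the named gene. RNA was taken at days 7, 9 and 11, which made 41 libraries in 15 groups. Groups had 3 libraries each, except Nr6a1 at all 3 days and Brd8 at day 9, which had 2. All groups, NT included, shared the doxycycline, the induced Cas9, the transfection and the culture medium, with bFGF (10 ng/ml) first, CHIR99021 (5 µM) from day 2, retinoic acid (RA, 100 nM) with the Smoothened agonist SAG (10 nM) from day 3 and SAG alone from day 5. Each knockout was a pool of edited cells and not a clone, so that unedited or in-frame cells can be part of it. Eed and Ezh2 encode core subunits of the Polycomb repressive complex PRC2. The product of Brd8 belongs to the TIP60 histone acetylation machinery, and Nr6a1 encodes a nuclear receptor with no known ligand.

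SoxB proteins are DNA-binding factors of the HMG-box family. The SoxB1 members SOX1, SOX2 and SOX3 are activators that overlap in function and keep neural cells in the progenitor state, and the SoxB2 member SOX21 is a repressor that opposes them and favours neuronal differentiation. Nestin (Nes) and vimentin (Vim) form the intermediate filament network of neuroepithelial and radial glial cells, and SoxB1 proteins bind a neural enhancer in an intron of Nes. Musashi-1 (Msi1) represses translation of bound mRNAs, among them the Notch inhibitor Numb, and prominin-1 (Prom1, CD133) sits in apical membrane protrusions of neuroepithelial cells. Vim is also made by mesenchymal and glial cells and Prom1 by several epithelia, so that neither is limited to neural progenitors.

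PRC2 is recruited mainly to promoters rich in CG dinucleotides, and the promoters of these genes differ in that content. RefSeq (GRCm38.p6) promoter windows were matched by symbol for 6 of the 8 genes, with Sox3 and Msi1 unmatched. In the 250 bases before the RefSeq start site, Sox1 had 29 CG dinucleotides, Sox2 27, Sox21 17, Nes 15 and Vim 8, and the 2 listed starts of Prom1 had 9 and 3, against a median of 6 over 32851 promoters of 27025 genes. At least as many as in Sox2 stood in 8.56% of all promoters, and at least as many as in Nes in 27.3%. The RefSeq starts differ from those of the GENCODE annotation given below. The Sox1 window (12395269 to 12395518) runs past the GENCODE start of Sox1 (12395295), and the full Nes window runs past that of Nes by its last bases. The Vim window (13574061 to 13574310) and the Prom1 windows lie within the GENCODE bounds of these genes, so not all windows hold only upstream bases. Nes, the gene that differed most often between knockout and control, and Sox2, which passed in no knockout comparison, are shown 5′ to 3′ on the plus strand, with CG dinucleotides in capitals. The Nes window is chr3:87970843-87971077, which ends 16 bases before the RefSeq start and holds 14 of its CG dinucleotides, and the Sox2 window is chr3:34649745-34649994, which ends at the base before it.
Nes: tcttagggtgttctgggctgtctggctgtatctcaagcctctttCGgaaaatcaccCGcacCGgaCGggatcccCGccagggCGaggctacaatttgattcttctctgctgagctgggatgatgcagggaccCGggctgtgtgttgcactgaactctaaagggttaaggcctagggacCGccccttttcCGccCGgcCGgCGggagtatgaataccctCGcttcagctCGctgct
Sox2: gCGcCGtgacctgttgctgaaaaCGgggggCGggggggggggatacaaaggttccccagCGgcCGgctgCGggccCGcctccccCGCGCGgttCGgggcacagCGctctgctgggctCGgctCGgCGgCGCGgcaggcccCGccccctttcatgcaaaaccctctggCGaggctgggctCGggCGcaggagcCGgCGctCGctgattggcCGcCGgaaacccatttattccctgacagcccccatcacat
These windows were also searched, on both strands, for 4 motifs. The letters CCAAT, which NF-Y binds, stood in 33.8% of all promoters, and the core ACAAT, which SOX proteins bind, in 27.7%. The octamer ATGCAAAT, which POU factors bind, stood in 1.6% and the letters TATAAA in 12.4%. Nes held 1 ACAAT, Sox2, Sox1 and the upstream start of Prom1 each held 1 CCAAT, and Vim held 2 CCAAT and 1 TATAAA. These are matches of letters, not measured binding, and no chromatin data were used here.

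On GRCm38 (GENCODE M21), each of the 4 SoxB genes is a single exon: Sox1 on chromosome 8 (12395295 to 12400126, plus strand), Sox2 on chromosome 3 (34650405 to 34652461, plus strand), Sox3 on chromosome X (60891366 to 60893430, minus strand) and Sox21 on chromosome 14 (118233232 to 118237030, minus strand). Nes has 4 exons (chromosome 3, 87971078 to 87980451), Vim 9 (chromosome 2, 13573927 to 13582826), Msi1 15 (chromosome 5, 115429599 to 115455698) and Prom1 25 (chromosome 5, 43993620 to 44102032). Sox2 lies inside the longer noncoding gene Sox2ot on the same strand and shares no exon base with it. Sox21 shares 713 exon bases (18.8% of its own) with the antisense gene Gm4675, which was not used here. The libraries were directional per the labels, but how strand was used in counting is not given, so reads of Sox21 and Gm4675 may not be told apart.

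Libraries held 8581282 to 38240227 estimated counts. A count of 0 in 1 library allowed up to 0.0785 to 0.350 CPM (3 counts of the total, counting error only), far below the levels of all 8 genes. CPM are TMM-scaled counts divided by the library total, expressed per 1e+06 counts. The ribosomal RNA precursor gene Rn45s took 4.06 to 15.8% of the counts. In 2 libraries, NT replicate 3 and Eed replicate 3 at day 11, log2 CPM correlated with no library of the same group at 0.95 or more (0.939 and 0.945 at best). The transcript of the targeted gene stood between -0.51 and 0.37 log2 units from NT in its own knockout, which does not test the edits, since small insertions and deletions need not lower a transcript. Whether the replicates were separate cultures is not stated, and p-values then measure only the spread between these libraries, which may be technical. In bulk RNA, fewer cells of a type and less RNA per cell cannot be told apart. Unless stated otherwise, tests are edgeR's quasi-likelihood test with Benjamini-Hochberg adjustment over the 15204 genes, "passed" means an adjusted p under 0.05, levels are mean CPM ± SD over libraries, and log2 fold changes carry their SE.

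Per kb of the longest coding transcript, Vim was the most abundant of the 8 in NT cells at day 7, at 463 ± 18.3 CPM per kb (n = 3). Sox3 (102 ± 3.81 CPM per kb) and Msi1 (100.1 ± 2.32) followed and lay within each other's spread. Nes stood at 89.0 ± 3.24 and Sox2 at 69.0 ± 7.25 CPM per kb. Sox21 (27.1 ± 0.531), Prom1 (25.5 ± 0.0651) and Sox1 (23.9 ± 0.347) were the lowest. By day 11 the order below Vim (498 ± 14.9 CPM per kb) had changed. Sox2 (97.2 ± 13) and Nes (87.1 ± 2.13) came next and did not differ beyond their spread, Msi1 (53.4 ± 1.65) and Sox3 (32.0 ± 7.01) were lower, and Sox21 (19.9 ± 0.740), Sox1 (18.6 ± 2.73) and Prom1 (13.8 ± 0.899) came last. Over all 41 libraries Vim ranged from 829.8 to 1286 CPM and Sox3 from 47.4 to 260.3 CPM, the narrowest and the widest span of the 8 relative to the lowest value. The levels of each gene in every library are shown in the panels by gene.

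**Figure D1:**
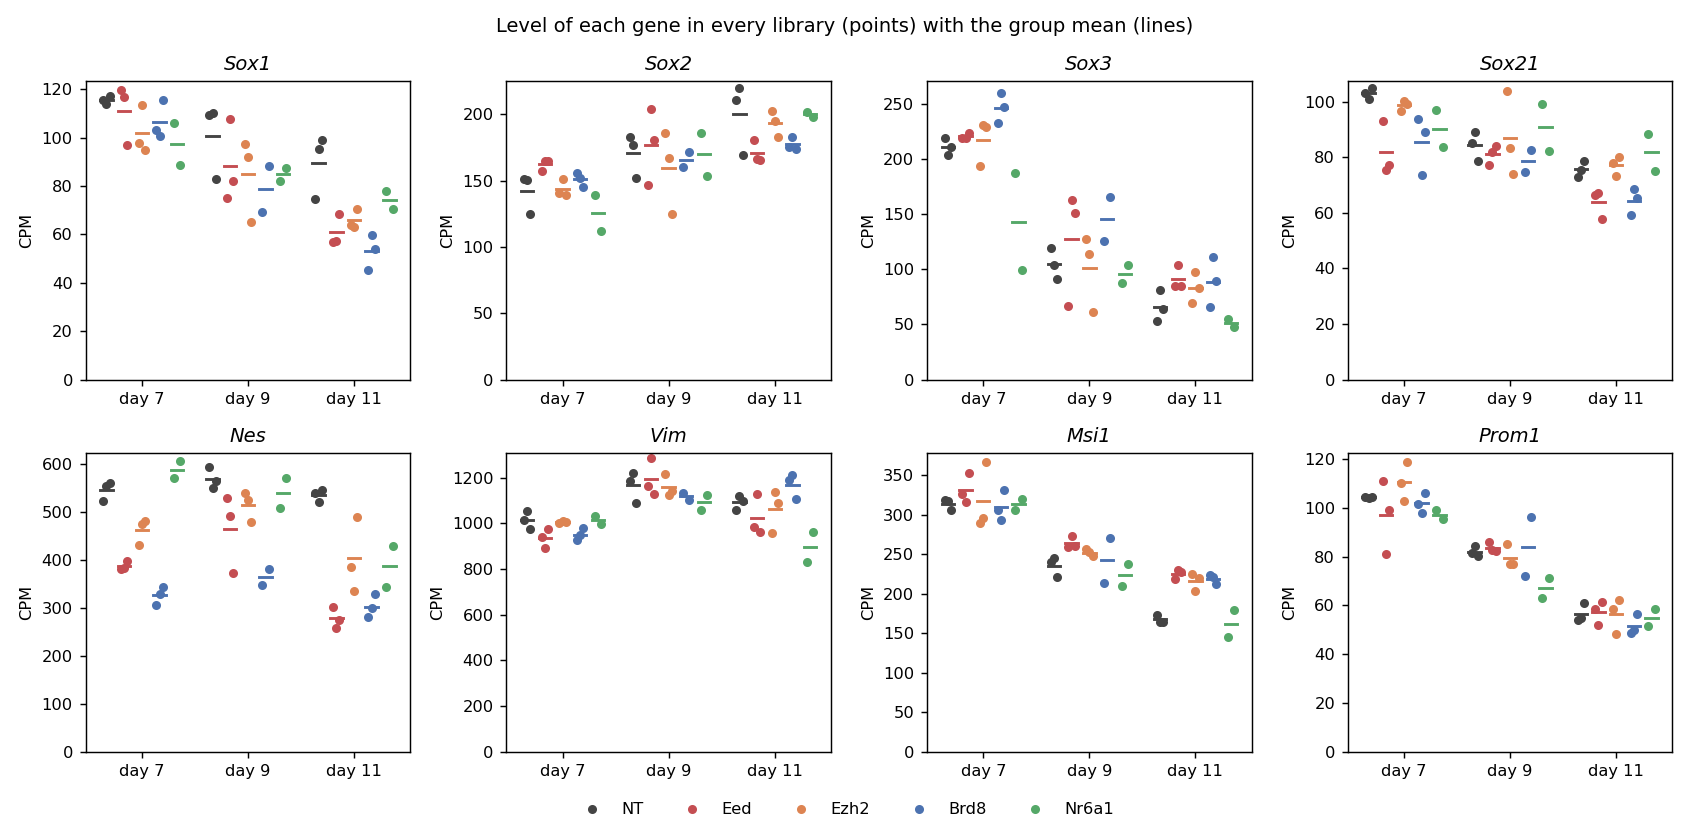
Level in CPM (vertical axis, starting at 0) of each of the 8 genes in each library (points) at days 7, 9 and 11, coloured by guide, with the group mean as a line. At day 7 the Eed, Ezh2 and Brd8 libraries lie below NT for Nes, and those of every knockout for Sox21. Sox3 has the steepest decline with time.

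NT cells were compared between days to give the course of each gene without a targeted edit. Between day 7 and day 11, 5 of the 8 genes fell and 1 rose, where 45.2% of all tested genes passed (21.9% higher and 23.3% lower). Sox3 fell furthest, at 219, 204 and 211 CPM in the 3 NT libraries of day 7, 119, 104 and 90.9 at day 9 and 53.0, 81.6 and 63.7 at day 11. No library of a later day reached one of an earlier day. The log2 fold change of Sox3 was -1.01 ± 0.232 from day 7 to day 9 (adjusted p = 0.000878), -0.67 ± 0.237 from day 9 to day 11 (adjusted p = 0.0363) and -1.68 ± 0.240 over the whole interval (adjusted p = 2.46e-07).

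The other SoxB1 genes took different courses. Sox2 stood at 151, 150.1 and 125 CPM at day 7, at 183, 176 and 152 at day 9 and at 211, 219.6 and 169.5 at day 11. The day 7 and day 11 libraries did not overlap, and Sox2 rose by 0.49 ± 0.114 log2 units between them (adjusted p = 0.000465). The steps of 0.26 ± 0.114 to day 9 (adjusted p = 0.0830) and of 0.23 ± 0.113 from day 9 (adjusted p = 0.144) did not pass alone. Sox1 declined from 115, 114 and 117 CPM at day 7 to 74.6, 95.4 and 99.0 at day 11, with 109, 110.2 and 82.8 between. It fell by 0.37 ± 0.139 log2 units over the interval (adjusted p = 0.0288), a call that was lost in 5 of 14 alternatives, 4 of which left out 1 NT library (day 7 replicate 1, 2 or 3, or day 11 replicate 1, at -0.25 to -0.38 log2 units). Sox21, the SoxB2 repressor gene, had 103, 101 and 105 CPM at day 7 against 72.9, 75.3 and 78.5 at day 11, and fell by 0.45 ± 0.107 log2 units (adjusted p = 0.000629).

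Msi1 and Prom1 declined at both steps. Msi1 had 319, 317 and 305 CPM at day 7, 239, 245 and 221 at day 9 and 173, 165 and 164 at day 11, with no overlap between days and a log2 fold change of -0.91 ± 0.0837 over the interval (adjusted p = 1.23e-11). Prom1 had 105, 104 and 104 CPM at day 7, 81.6, 84.3 and 80.3 at day 9 and 54.1, 54.8 and 60.8 at day 11, a log2 fold change of -0.89 ± 0.106 (adjusted p = 5.69e-09). Neither filament gene passed between days 7 and 11. Nes was at 545 ± 19.9 CPM at day 7 and 534 ± 13 CPM at day 11 (n = 3 each), a difference of -0.03 log2 units with a 95% interval of -0.23 to 0.17. Vim was at 1015 ± 40.1 CPM at day 7 and 1092 ± 32.6 CPM at day 11 (0.11 log2 units, interval -0.02 to 0.24). From day 7 to day 9, 4 of the 8 genes fell (Sox3, Sox21, Msi1 and Prom1) and Vim rose by 0.20 ± 0.0667 log2 units (adjusted p = 0.0206), where 27.9% of all genes passed (14.5% higher and 13.3% lower). The call of Vim was lost without NT replicate 1 or 3 of day 7 or replicate 1 or 2 of day 9 (adjusted p up to 0.103), and that of Sox21 (-0.29 ± 0.106) without any 1 of 5 of the 6 libraries (adjusted p up to 0.148). From day 9 to day 11, 3 genes fell (Sox3, Msi1 and Prom1), where 23.5% passed (10.6% higher and 12.9% lower), and the call of Sox3 was lost without NT replicate 1 or 2 of day 9 or replicate 1 or 3 of day 11 (-0.53 to -0.67 log2 units, adjusted p up to 0.157), without both low-agreement libraries (-0.64, adjusted p = 0.0987) and by DESeq2 (-0.64, adjusted p = 0.0687). The curves of log2 fold change against day 7 show the spread of these courses.

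**Figure D2:**
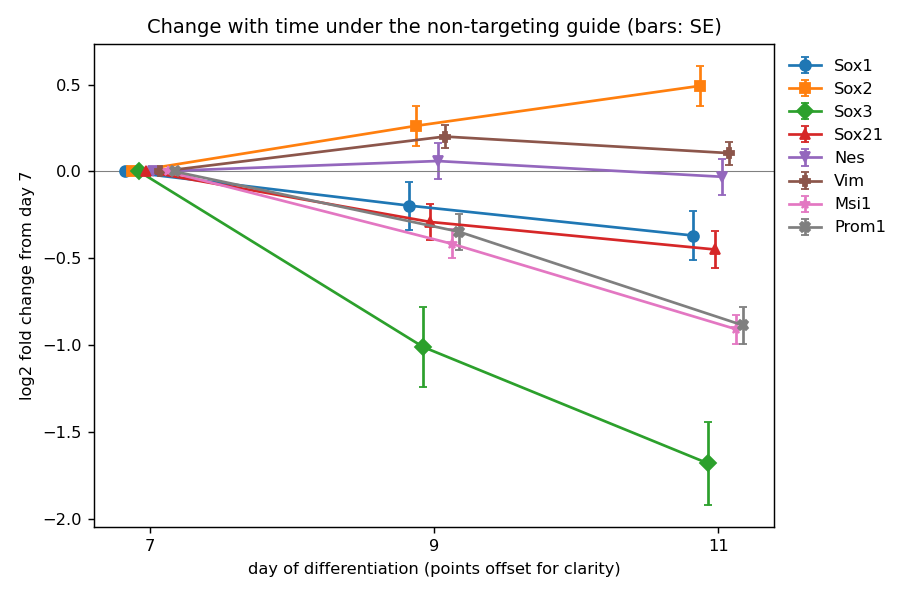
Log2 fold change from day 7 (vertical axis) of each gene in NT cells at days 7, 9 and 11 (horizontal axis, points offset), with bars of 1 SE. Sox2 ends at 0.49, Nes at -0.03 and Sox3 at -1.68.

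Sox3 moved with the share of Rn45s in the libraries. Rn45s took 14.1 to 14.7% of counts in NT libraries of day 7, 5.95 to 6.89% at day 9 and 5.18 to 6.79% at day 11, so that day and Rn45s share cannot be told apart between day 7 and later days. Across the 41 libraries log2 CPM of Sox3 had a Pearson r of 0.93 with the log2 of that share, and r = 0.85 for deviations from the group means, a description of points that share depth and composition. Over the same libraries r was also 0.78 for Msi1, 0.68 for Prom1, 0.62 for Sox1 and 0.45 for Sox21. It was -0.39 for Vim, -0.37 for Sox2 and -0.10 for Nes. The deviations of Sox2 had r = 0.69, those of Sox1 0.44, Vim 0.43, Sox21 0.28, Msi1 0.20, Nes -0.23 and Prom1 -0.23. In the 3 groups with the largest SD of Sox3, the library with the lowest level was also the deepest of its group and had the lowest share, which did not hold in every other group. Nr6a1 replicate 3 at day 7 had 99.2 CPM beside 187 in replicate 2, Eed replicate 1 at day 9 had 67.1 beside 163 and 151, and Ezh2 replicate 3 at day 9 had 61.3 beside 127 and 114. With the log2 share of Rn45s as a covariate, the fall of Sox3 in NT cells was no longer called, at 0.23 log2 units to day 9 (adjusted p = 0.504) and -0.23 to day 11 (adjusted p = 0.452). Under the same covariate Sox1 stood at 0.06 (adjusted p = 0.869) and Sox21 at -0.26 (adjusted p = 0.253) between days 7 and 11, whereas Msi1 (-0.80, adjusted p = 5.75e-06), Prom1 (-1.03, adjusted p = 5.00e-06) and Sox2 (1.02, adjusted p = 5.02e-07) kept their calls. From day 7 to day 9 the calls of Sox21 (-0.13, adjusted p = 0.652) and Msi1 (-0.33, adjusted p = 0.0563) were lost under it. Calls gained under it were those of Sox2 from day 7 to day 9 (0.71, adjusted p = 0.000161) and from day 9 to day 11 (0.31, adjusted p = 0.0115) and of Vim between days 7 and 11 (0.28, adjusted p = 0.0278). The transcript of Sox3 had the highest GC content of the 8 (66.4%) and that of Prom1 the lowest (45.8%). Between them stood Sox21 (58.3%), Msi1 (57.9%), Sox1 (56.9%), Nes (55.5%), Vim (53.9%) and Sox2 (50.5%). The order by GC content was thus not the order by r. The part of GC content, of RNA quality or of ribosomal depletion in the values of this paragraph was not tested.

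**Figure D3:**
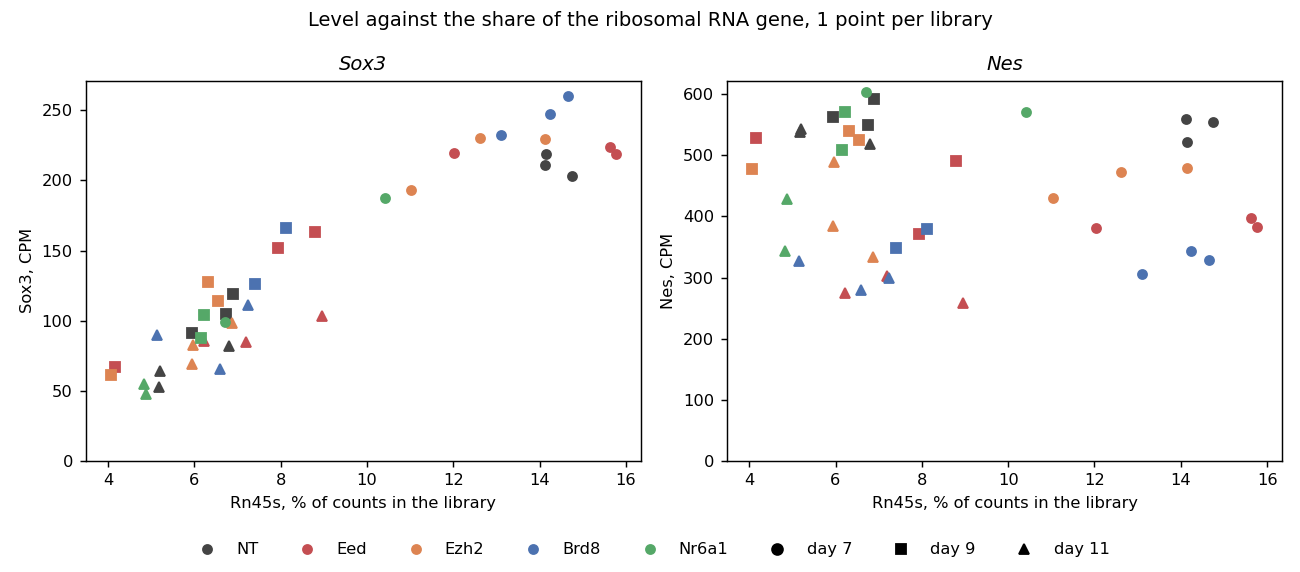
Level in CPM (vertical axes) of Sox3 (left) and Nes (right) against the share of Rn45s in percent of all counts (horizontal axes), 1 point per library, coloured by guide and shaped by day. Sox3 rises along the axis (r = 0.93 over 41 libraries, on log2 scales), and Nes does not (r = -0.10).

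Each knockout was compared with NT of the same day to ask how progenitor gene expression differed in cells with guides against the named gene. The knockouts share their NT libraries at each day, so their differences are not independent of each other. At day 11, Nes and Sox1 fell and Msi1 rose in Eed, Ezh2 and Brd8 cells. These were 3 of the 8 genes in each knockout, where 24.0% of all tested genes passed in Eed cells (13.3% higher and 10.6% lower), 7.91% in Ezh2 cells (5.22% and 2.70%) and 17.8% in Brd8 cells (10.3% and 7.48%). In Nr6a1 cells at day 11 none of the 8 passed, where 0.0789% of all genes did, with 2 of the 8 at an unadjusted p under 0.05 in edgeR and 2 called by DESeq2 (Nes and Vim). At day 7, Nes and Sox21 fell in Eed cells (8.66% of all genes passed, 2.90% higher and 5.76% lower) and Nes in Brd8 cells (4.75%, 1.30% higher and 3.45% lower). At day 9, Nes fell in Brd8 cells (15.5%, 7.72% higher and 7.81% lower).

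No member passed in the other 5 comparisons with NT. They were Ezh2 at day 7 (0.151% of all genes passed, 1 member at an unadjusted p under 0.05 by edgeR and 0 called by DESeq2), Nr6a1 at day 7 (0.145%, 1 and 0), Eed at day 9 (5.14%, 2 and 1), Nr6a1 at day 9 (0.151%, 1 and 0) and Ezh2 at day 9. In Ezh2 cells at day 9, edgeR called 0% of all genes, with 685 genes and 0 members at an unadjusted p under 0.05, and DESeq2 called 6 genes and 0 members. Sox2, Sox3, Vim and Prom1 passed in none of the 12 comparisons of a knockout with NT.

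**Figure D4:**
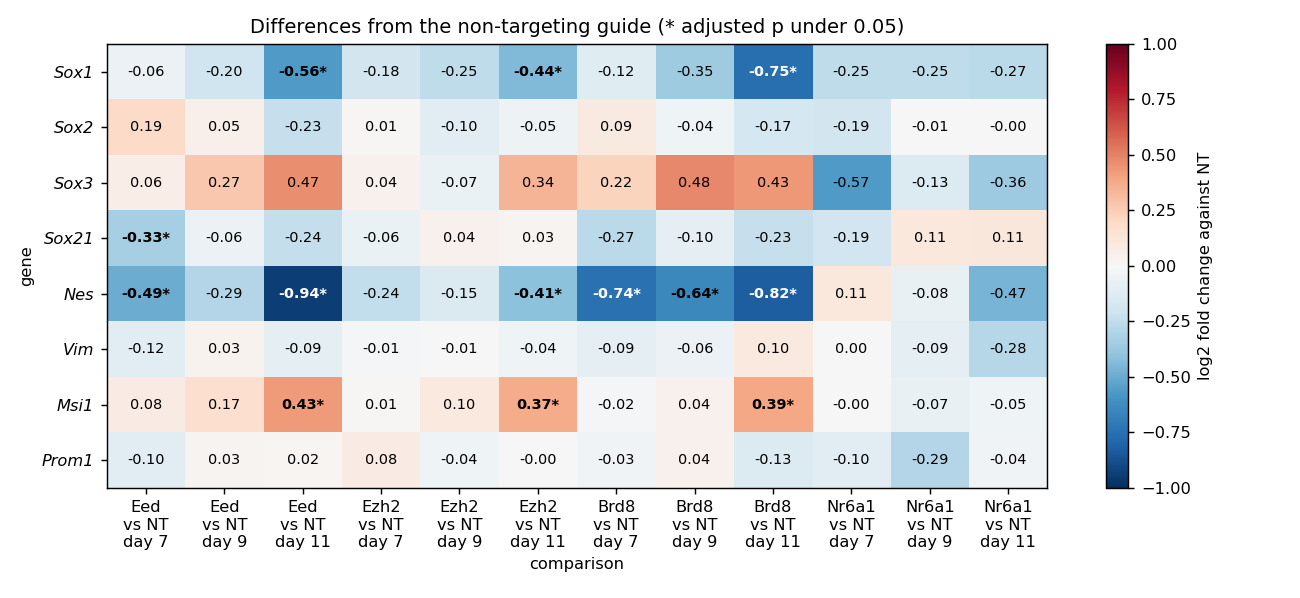
Log2 fold change of each gene (rows) in each knockout against NT of the same day (columns), on a colour scale from -1 to 1 (blue lower, red higher), with the value printed and a star where the adjusted p was under 0.05. Nes carries 6 of the 13 stars, and Sox1 and Msi1 carry 3 each, all at day 11.

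Nes, the gene of the progenitor filament nestin, was the member that differed most often. At day 7 it stood at 522, 554 and 559 CPM in NT, at 381, 383 and 397 in Eed cells, at 429.8, 473 and 479.7 in Ezh2 cells, at 305, 328 and 343 in Brd8 cells and at 571 and 604 in Nr6a1 cells. Every Eed, Ezh2 and Brd8 library lay below every NT library, and both Nr6a1 libraries above. The log2 fold change was -0.49 ± 0.104 in Eed cells (adjusted p = 0.00155) and -0.74 ± 0.104 in Brd8 cells (adjusted p = 4.84e-05). The value of Ezh2 cells, -0.24 ± 0.103, did not pass (adjusted p = 0.353), except with only the groups compared in the fit (adjusted p = 0.0317).

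At day 9 Nes had 592, 549.8 and 564 CPM in NT and 348 and 379.5 in Brd8 cells, which did not overlap (log2 fold change -0.64 ± 0.117, adjusted p = 0.000156). Eed cells had 529, 491 and 371 CPM, all below NT but spread over a wider range (-0.29 ± 0.103, adjusted p = 0.0901). Without Eed replicate 1, the deepest of all libraries, that difference was -0.40 and passed (adjusted p = 0.0167). Ezh2 cells (539, 525 and 477 CPM) and Nr6a1 cells (508 and 571 CPM) differed from NT by -0.15 and -0.08 log2 units.

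At day 11 NT cells kept 538, 519 and 544 CPM of Nes. Eed cells had 302, 258 and 274 CPM, a fall of 1.92-fold (log2 fold change -0.94 ± 0.104, adjusted p = 1.30e-08). Brd8 cells had 280.0, 298 and 328 CPM, a fall of 1.77-fold (-0.82 ± 0.104, adjusted p = 2.92e-07). The Eed and Brd8 libraries overlapped each other and lay far below NT.

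Ezh2 cells had 384, 334 and 489 CPM of Nes at day 11, also below every NT library (-0.41 ± 0.103, adjusted p = 0.00923). Its replicates spread over a range larger than the distance of the highest from NT, and without Ezh2 replicate 2 the call was lost (-0.29, adjusted p = 0.111). Nr6a1 cells had 343 and 429 CPM, below NT, but did not pass (-0.47 ± 0.116, adjusted p = 0.0975). DESeq2 called that difference (-0.48, adjusted p = 0.0142), as did the fits with no low-count filter (-0.47) and without Nr6a1 replicate 3 (-0.64, adjusted p = 0.0383). With both low-agreement libraries left out, Nes at day 11 was at -0.92 in Eed cells (adjusted p = 5.40e-06), -0.81 in Brd8 cells (adjusted p = 6.59e-06) and -0.40 in Ezh2 cells (adjusted p = 0.0401).

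Sox1, the SoxB1 gene most restricted to neuroectoderm, was lower at day 11. It had 74.6, 95.4 and 99.0 CPM in NT, 56.8, 57.1 and 68.6 in Eed cells, 64.1, 62.9 and 70.4 in Ezh2 cells, 45.3, 59.7 and 54.1 in Brd8 cells and 77.9 and 70.5 in Nr6a1 cells. All libraries of Eed, Ezh2 and Brd8 cells lay below those of NT, while Nr6a1 overlapped. Sox1 fell by 0.56 ± 0.141 log2 units in Eed cells (adjusted p = 0.00278) and by 0.75 ± 0.143 in Brd8 cells (adjusted p = 0.000154), and both calls held in all 14 alternatives. In Ezh2 cells it fell by 0.44 ± 0.140 log2 units (adjusted p = 0.0417), but the call held in 8 of 14 alternatives only. It was lost without any 1 of the 3 Ezh2 libraries (adjusted p = 0.0602 to 0.132), without NT replicate 2 (adjusted p = 0.119), without NT replicate 3 (adjusted p = 0.202) and without both low-agreement libraries (-0.37, adjusted p = 0.185). At days 7 and 9 Sox1 passed in no knockout, with log2 fold changes from -0.06 in Eed cells at day 7 to -0.35 in Brd8 cells at day 9 (adjusted p = 0.125).

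Sox2, the SoxB1 gene shared with pluripotent cells, passed in no comparison with NT. At day 11 it had 211, 219.6 and 169.5 CPM in NT, 181, 166 and 165 in Eed cells, 202, 195 and 183 in Ezh2 cells, 175, 183 and 174 in Brd8 cells and 202 and 198 in Nr6a1 cells. The lowest NT library, replicate 3, lay among the Eed and below the Brd8 libraries. The difference in Eed cells was -0.23 log2 units (interval -0.45 to -0.00, adjusted p = 0.149). Without NT replicate 3 it was -0.34 and passed (adjusted p = 0.0469), as it did with the Rn45s share as a covariate (-0.37, adjusted p = 0.00380), and without both low-agreement libraries it was -0.31 (adjusted p = 0.116). In Brd8 cells it was -0.17 (interval -0.40 to 0.05) and in Ezh2 cells -0.05 (-0.27 to 0.17). Sox2ot, the noncoding gene around Sox2, fell in Eed cells at day 7 (-0.38 ± 0.110, adjusted p = 0.0241) and day 11 (-0.33 ± 0.109, adjusted p = 0.0260). It also fell in Brd8 cells at day 9 (-0.67 ± 0.124, adjusted p = 0.000194) and day 11 (-0.45 ± 0.110, adjusted p = 0.00289). The Eed libraries of day 11 (53.4 to 65.5 CPM) overlapped NT (60.5 to 82.7). At day 7 the Brd8 libraries (60.6 to 69.6 CPM) also lay below NT (78.6 to 90.8). Sox2ot levels of Ezh2 and Nr6a1 cells overlapped NT at all 3 days.

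Sox3 also passed in no comparison with NT, and its intervals were the widest of the 8. At day 11 it had 53.0, 81.6 and 63.7 CPM in NT, 84.6, 104 and 85.3 in Eed cells, 69.2, 98.0 and 82.9 in Ezh2 cells, 65.7, 111 and 89.8 in Brd8 cells and 55.1 and 47.4 in Nr6a1 cells. The Eed libraries lay above NT without overlap, at 0.47 log2 units (interval -0.00 to 0.93, adjusted p = 0.160), and the other groups overlapped. The Rn45s share was 6.22 to 8.96% in the 3 Eed libraries and 5.18 to 6.79% in the NT libraries, and with that share as a covariate the Sox3 difference was 0.06 (adjusted p = 0.806). With no low-count filter Sox3 passed at day 11 in Eed cells (0.46, adjusted p = 4.73e-05), Ezh2 cells (0.33, adjusted p = 0.0155) and Brd8 cells (0.43, adjusted p = 0.000324), in Brd8 cells at day 9 (0.48, adjusted p = 0.000157) and, lower than NT, in Nr6a1 cells at day 7 (-0.56, adjusted p = 5.80e-05). With only the compared groups in the fit it passed in Brd8 cells at day 7 (0.23, adjusted p = 0.0401) and day 9 (0.48, adjusted p = 0.0306). At day 7, Brd8 cells had 233, 260.3 and 247 CPM against 219, 204 and 211 in NT (0.22 log2 units, interval -0.22 to 0.67).

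Sox21, the SoxB2 repressor gene, had 103, 101 and 105 CPM in NT at day 7 and 93.1, 75.3 and 77.1 in Eed cells, which did not overlap. It fell by 0.33 ± 0.107 log2 units (adjusted p = 0.0452), close to the threshold, and the call held in 8 of 14 alternatives. It was lost with DESeq2 size factors (adjusted p = 0.0555), without any 1 of the 3 NT libraries (adjusted p = 0.0860 to 0.130) and without Eed replicate 2 or 3 (adjusted p = 0.206 and 0.144). Brd8 cells at day 7 had 93.8, 73.5 and 89.0 CPM, also all below NT (-0.27 ± 0.106, adjusted p = 0.144). The day 7 libraries of Ezh2 cells (96.5, 100.2 and 99.1 CPM) and Nr6a1 cells (96.9 and 83.7 CPM) lay below NT as well, and neither group passed. A place below NT at day 7 was thus shared by all knockouts. At day 11 Eed cells (66.4, 67.1 and 57.6 CPM) and Brd8 cells (59.1, 68.4 and 65.2 CPM) lay below the NT libraries (72.9, 75.3 and 78.5 CPM) by -0.24 and -0.23 log2 units, and neither passed (adjusted p = 0.100 and 0.139).

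Msi1 was the only member that rose against NT. At day 11 it had 173, 165 and 164 CPM in NT, 218, 230.3 and 228 in Eed cells, 225, 203 and 219.8 in Ezh2 cells, 223, 221 and 212 in Brd8 cells and 145 and 179 in Nr6a1 cells. The libraries of Eed, Ezh2 and Brd8 cells all stood above NT, within a common range, while Nr6a1 overlapped NT. The log2 fold change was 0.43 ± 0.0834 in Eed cells (adjusted p = 0.000158), 0.37 ± 0.0832 in Ezh2 cells (adjusted p = 0.00296) and 0.39 ± 0.0835 in Brd8 cells (adjusted p = 0.000790). These calls held in all 14 alternatives each, at 0.34 to 0.46 log2 units. The day 11 levels of these knockouts (225 ± 6.56, 216 ± 11.4 and 219 ± 5.66 CPM) lay between those of NT at day 9 (235 ± 12.6 CPM) and day 11 (167 ± 5.17 CPM). At day 7 Msi1 differed from NT by at most 0.08 log2 units in any knockout.

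Vim and Prom1 passed in no comparison with NT. At day 11 Vim had 1058, 1123 and 1096 CPM in NT, 985, 1127 and 964 in Eed cells, 958, 1136 and 1090.3 in Ezh2 cells and 1188, 1211 and 1109 in Brd8 cells, all 3 overlapping NT. The log2 differences were -0.09, -0.04 and 0.10, with intervals that reached from -0.22 to 0.23. Nr6a1 cells had 829.8 and 964 CPM, below every NT library (-0.28 ± 0.0750, adjusted p = 0.128), and DESeq2 called that difference (-0.29, adjusted p = 0.0211). Prom1 at day 11 had 54.1, 54.8 and 60.8 CPM in NT, 58.4, 51.9 and 61.4 in Eed cells, 58.7, 48.3 and 62.1 in Ezh2 cells and 48.6, 49.7 and 56.3 in Brd8 cells, which all overlapped. Its log2 differences of 0.02, -0.00 and -0.13 had intervals within -0.34 and 0.23. So nestin and vimentin transcripts, which encode partners in 1 filament, stood apart in Eed and Brd8 cells at day 11, with Nes at -0.94 and -0.82 log2 units and Vim at -0.09 and 0.10, though the difference between the genes was not tested.

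**Figure D5:**
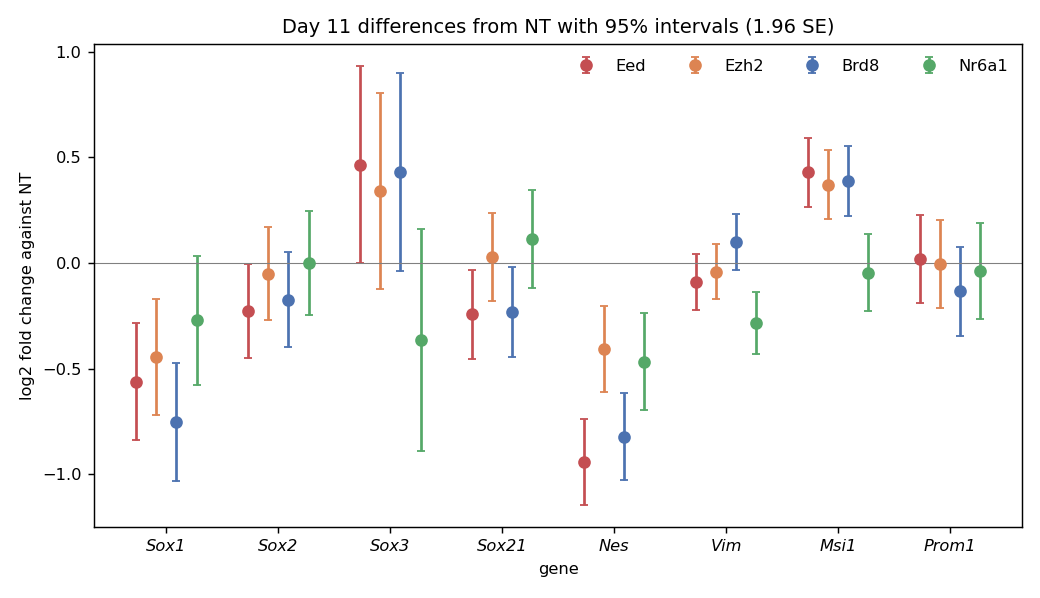
Log2 fold change against NT at day 11 (vertical axis) of each gene (horizontal axis) in Eed, Ezh2, Brd8 and Nr6a1 cells and bars of the 95% interval. Nes and Sox1 lie below 0 and Msi1 above 0 in Eed, Ezh2 and Brd8 cells, and the intervals of Sox3 are the widest.

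Eed and Ezh2 cells, which carried guides against partners in PRC2, were compared directly. At day 11, 1 of the 8 genes passed, where 2.88% of all genes did (1.53% higher and 1.35% lower in Eed cells). This was Nes, at 302, 258 and 274 CPM in Eed cells against 384, 334 and 489 in Ezh2 cells, without overlap (-0.53 ± 0.104 log2 units, adjusted p = 0.00271). Without Ezh2 replicate 3, the highest of its group, the difference was -0.37 and did not pass (adjusted p = 0.0757). Without both low-agreement libraries it was -0.53 (adjusted p = 0.0248). None of the 8 passed at day 7 (0.151% of all genes, 2 members at an unadjusted p under 0.05 by edgeR and 0 called by DESeq2). None passed at day 9 either, where edgeR called 0% of all genes (1486 genes and 0 members at an unadjusted p under 0.05) and DESeq2 called 152 genes and 0 members. For Msi1 at day 11 the difference between Eed and Ezh2 cells was 0.06 log2 units (interval -0.10 to 0.22), and for Sox1 -0.12 (-0.39 to 0.16).

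Whether a knockout's effect at day 11 differed from its effect at day 7 was tested as an interaction. In Brd8 cells 1 member passed, Msi1, whose difference from NT went from -0.02 at day 7 to 0.39 at day 11, a change of 0.40 ± 0.117 log2 units (adjusted p = 0.0365), where 4.55% of all genes passed (2.98% higher and 1.57% lower). That call held in 10 of 20 alternatives (adjusted p = 0.0214 to 0.100), and was lost without Brd8 replicate 1 or 2 of either day, NT replicates 1, 2 or 3 at day 7, NT replicates 2 or 3 at day 11, or both low-agreement libraries (0.39, adjusted p = 0.0785). In Brd8 cells the change of Sox1 was -0.64 ± 0.199 and did not pass (adjusted p = 0.0568). It passed in 7 of 20 alternatives (adjusted p = 0.00106 to 0.167 over all 20), among them DESeq2 (-0.66, adjusted p = 0.0289). The change of Nes in Brd8 cells was -0.08 ± 0.146, so Nes was lower by about the same amount at days 7 and 11. In Eed cells none passed (6.32% of all genes, with 4 members at an unadjusted p under 0.05 by edgeR and 1, Nes, called by DESeq2), the most negative being Sox1 at -0.51 ± 0.198 (adjusted p = 0.132) and Nes at -0.45 ± 0.146 (adjusted p = 0.0586). None passed in Ezh2 cells (1.41% of all genes, 1 member at an unadjusted p under 0.05 and 0 by DESeq2) or Nr6a1 cells (0.112%, 2 and 0). In Ezh2 cells the change of Msi1 was 0.36 ± 0.117 (adjusted p = 0.127).

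Other genes of the progenitor state were taken from a list of 16 named for their role. In NT cells from day 7 to day 11, 6 rose and 5 fell (median log2 fold change -0.08, against 0.00 over all genes), where 21.9% of all tested genes rose and 23.3% fell. The glial glutamate transporter gene Slc1a3 rose 7.30-fold and the radial glial lipid-binding protein gene Fabp7 5.17-fold, while the Hippo pathway factor gene Tead2 fell 2.32-fold. At day 11, 5 of the 16 rose and 7 fell in Eed cells (median -0.28, against 0.02 over all genes), 2 rose and 4 fell in Ezh2 cells (-0.20, against 0.03) and 3 rose and 7 fell in Brd8 cells (-0.21, against 0.02). Pax6, a progenitor factor that is absent from the most ventral domains, rose from 16.5 ± 2.66 CPM in NT to 75.5 ± 7.95 in Eed cells (4.59-fold, adjusted p = 8.43e-10), 56.4 ± 10.8 in Ezh2 cells (3.44-fold) and 65.6 ± 5.05 in Brd8 cells (3.99-fold). Olig2, the factor of motor neuron and oligodendrocyte progenitors, fell from 249 ± 23.4 CPM to 75.5 ± 9.07 in Eed cells (3.28-fold, adjusted p = 1.04e-09), 147 ± 11.3 in Ezh2 cells and 102 ± 24.0 in Brd8 cells. Rfx4, a ciliary and patterning factor of progenitors, fell 2.07-fold, 1.52-fold and 2.15-fold. In Brd8 cells at day 9, 4 of the 16 rose and 4 fell, with Pax6 3.93-fold and the Notch effector Hes5 2.98-fold higher. There 7.72% of all tested genes rose and 7.81% fell.

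Among 15 further genes of the Sox family, 9 rose and 2 fell in NT cells between day 7 and day 11 (median 1.56), where 21.9% of all tested genes rose and 23.3% fell. The SoxD gene Sox6 rose 11.5-fold, the SoxE genes Sox8 and Sox9 rose 6.99-fold and 2.94-fold, and Sox13 fell 2.77-fold. At day 11, 3 of the 15 rose and 3 fell in Eed cells (median 0.17), 1 rose and 2 fell in Ezh2 cells (0.09) and 1 rose and 3 fell in Brd8 cells (0.48). The shares of all tested genes that rose and fell were 13.3% and 10.6%, 5.22% and 2.70%, and 10.3% and 7.48% in the same order. Sox6 stood at 266 ± 11 CPM in NT, 71.5 ± 11.1 in Eed cells (-1.89 ± 0.190, adjusted p = 1.69e-09), 129 ± 14.6 in Ezh2 cells (-1.04 ± 0.184, adjusted p = 0.000202) and 70.6 ± 4.53 in Brd8 cells (-1.91 ± 0.190, adjusted p = 2.90e-09). Sox8 fell 3.55-fold, 1.76-fold and 2.94-fold in the same order. The SoxC gene Sox11, which is active in young neurons and progenitors, rose by 0.40 ± 0.0699, 0.40 ± 0.0699 and 0.48 ± 0.0699 log2 units, a rise near that of Msi1.

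Of 13 tested genes among 14 other intermediate filament and lamin genes, 2 fell in Eed cells at day 7, the neuronal filament genes Ina (1.74-fold) and Nefl (1.78-fold), and 1 in Brd8 cells, Ina (1.58-fold). In Brd8 cells at day 9, 3 fell, Nefl, Ina and Nefh (1.87-fold, 1.64-fold and 2.23-fold). Of all tested genes, 5.76% fell in Eed cells and 3.45% in Brd8 cells at day 7, and 7.81% in Brd8 cells at day 9. At day 11, 4 rose in Eed cells, 1 in Ezh2 cells and 3 in Brd8 cells, where 1 fell. The shares of all tested genes that rose were 13.3%, 5.22% and 10.3% in the same order, and 7.48% fell in Brd8 cells. The muscle filament gene Des rose to a mean of only 13.6 CPM in Brd8 and 6.60 CPM in Eed cells, and the nuclear lamin gene Lmnb1 rose 1.30-fold in Eed cells and 1.25-fold in Brd8 cells.

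Markers of proliferation and of other cell types moved in the same comparisons, and their part in the differences of Nes, Sox1 and Msi1 was not tested. All 10 cell cycle genes fell in NT cells between day 7 and day 11 (median -1.66), where 23.3% of all tested genes fell. At day 11, 10 of 10 rose in Eed cells (median 1.09), 9 of 10 in Ezh2 cells (0.80) and 10 of 10 in Brd8 cells (1.01), beside 13.3%, 5.22% and 10.3% of all tested genes. Their summed level was 695 to 721 CPM in NT, 1312 to 1589 in Eed, 1033 to 1259 in Ezh2, 1163 to 1495 in Brd8 and 696 to 904 in Nr6a1 libraries. At day 11 Msi1 was higher, and Nes and Sox1 lower, in Eed, Ezh2 and Brd8 cells, whose cell cycle sums lay above NT. At day 7 the sums of these knockouts also lay above NT (2295 to 2418 CPM). They were 2778 to 3069 CPM in Eed, 2516 to 2707 in Ezh2 and 2652 to 2873 in Brd8 libraries. At day 9 those of Eed (1599 to 2047 CPM) and Brd8 (1968 to 2305) lay above NT (1287 to 1510), and those of Ezh2 (1389 to 1578) overlapped NT. Msi1 and Sox1 passed in no knockout at days 7 and 9, and how their levels relate to these sums was not tested. At day 7, 9 of 10 neuron genes fell in Eed cells (median -0.63) and 8 of 10 in Brd8 cells (-0.46), with summed levels of 2309 to 2783 and 2530 to 2969 CPM against 3720 to 3909 in NT. In the same comparisons, 4 of 6 neural crest genes rose in each knockout, 1 fell in Eed cells, and of the 10 cell cycle genes 5 were higher with Eed guides and 2 with Brd8 guides by the same test. Of all tested genes at day 7, 2.90% rose and 5.76% fell in Eed cells, and 1.30% rose and 3.45% fell in Brd8 cells. In Brd8 cells at day 9, where Nes also fell, 10 of 10 cell cycle genes rose (median 0.67), 8 of 10 neuron genes fell (-0.47) and 4 of 6 neural crest genes rose (2.43). There 7.72% of all tested genes rose and 7.81% fell.

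For the counts of this paragraph, the shares of all tested genes at day 11 were 13.3% higher and 10.6% lower in Eed cells. They were 5.22% and 2.70% in Ezh2 cells and 10.3% and 7.48% in Brd8 cells. Of 8 astroglial genes at day 11, 5 fell and 2 rose in Eed cells, 4 fell and 1 rose in Ezh2 cells and 4 fell and 2 rose in Brd8 cells, with summed levels of 505 to 624, 635 to 665 and 574 to 610.5 CPM against 709.9 to 791 in NT. Of 8 oligodendrocyte precursor genes 5, 2 and 5 fell. Of 10 neuron genes at day 11, 2, 0 and 1 fell and 0 rose in Eed, Ezh2 and Brd8 cells (medians -0.13, 0.16 and 0.03). Their summed levels were 4280 to 4552, 5115 to 5654 and 4563 to 5229 CPM in that order, against 5025 to 5444 in NT. Of 6 neural crest genes at day 11, 3 rose and 1 fell in Eed and in Ezh2 cells and 3 rose in Brd8 cells, with summed levels of 389.9 to 435 CPM in Eed, 285 to 424 in Ezh2 and 469 to 565 in Brd8 libraries against 258 to 293 in NT. Of 9 epithelial genes 7 rose in Eed cells at day 11, with summed levels of 185 to 357 CPM against 14.2 to 20.4 in NT, 12.2 to 48.0 in Ezh2 and 6.72 to 37.5 in Brd8 libraries. Of 8 pluripotency genes at day 11, 2 rose in Eed cells and 1 in Ezh2 cells, and 3 fell in Brd8 cells, with summed levels of at most 68.6 CPM in every group of that day. The mesenchyme genes, a list without Vim, had summed levels of 402 to 589 CPM in NT, 398 to 536 in Eed, 352 to 484 in Ezh2 and 305 to 558 in Brd8 libraries at day 11, which overlapped.

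How the 8 genes varied with each other was described over the 15 group means of log2 CPM, points that share days, NT controls and the scaling between libraries. Sox3 and Msi1 had the highest correlation (Pearson r = 0.93), followed by Sox3 with Prom1 (0.89), Msi1 with Prom1 (0.88) and Sox1 with Prom1 (0.85). Sox2 ran against Msi1 (-0.85), Prom1 (-0.82) and Sox3 (-0.74). Nes was closest to Sox21 (0.70) and Sox1 (0.59) and near 0 with Sox3 (0.01), and Vim had r between -0.29 (Sox1) and 0.24 (Nes).

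The genes most like each member were sought among 10500 genes with a mean of at least 5 CPM, by the same correlation over 15 group means. Sox1 was closest to Iqgap2 (0.95), Crb2 (0.93) and Pmm2 (0.93), of which Crb2 encodes an apical polarity protein of neuroepithelium. Sox2 was closest to Rragd (0.92), D8Ertd82e (0.92) and Fndc3b (0.92), Sox3 to Raly, Ranbp1 and Lmnb1 (0.99 each) and Sox21 to Onecut3, Ccdc88c and Apba2 (0.92 each). Nes was closest to Trip12 (0.92), Kdm4a (0.91) and Pknox2 (0.91), and Vim to Rara (0.87), the retinoic acid receptor alpha gene, Ano10 (0.86) and Armcx2 (0.85). Msi1 was closest to the RNA-binding protein gene Nono (0.99), the splicing factor gene Srsf3 (0.99) and the chromatin remodelling gene Baz1a (0.98), and Prom1 to Cox10 (0.97), Golm1 (0.97) and Nploc4 (0.97).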

How the data were processed

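Total RNA of 41 libraries was sequenced after ribosomal depletion with a directional kit, per the labels' protocols. The authors deposited estimated counts per gene symbol (raw counts), not all whole (29525 values in 2426 genes had a fraction), and they were rounded to whole numbers. Per the submitters' processing notes, the build was mm10 and DESeq2 was among the tools. For the aligner, quantifier and annotation, the sources used here give no name. Depth was 8581282 to 38240227 counts per library.

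Groups came from the titles. In R 4.3.3 with edgeR 4.0.16, genes were filtered with filterByExpr (15204 of 24410 tested) with TMM scaling, and all 41 libraries entered 1 quasi-likelihood fit in which each of the 15 groups had its own mean. Two-sided p-values were corrected over all genes by the Benjamini-Hochberg method in each of 22 comparisons, with a threshold of 0.05. Intervals are 95% (1.96 SE) and are not adjusted. Log2 CPM used a prior count of 2. The procedure was tested on simulated data. Genes named were the 8 members, the 4 targeted genes, up to 4 genes per list and comparison with the smallest adjusted p, and the 3 genes most correlated with each member. Sox2ot and Rn45s were named after their values were seen. The members and lists were chosen with earlier results of these data known.

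Alternatives were size factors or the Wald test of DESeq2 1.42.0, no filter on low counts, a replicate block, a fit of the compared groups alone, no Rn45s, no low-agreement libraries (best r within the group under 0.95) and each library left out in turn. The log2 share of Rn45s as a covariate was chosen after the data were seen. With 1 library left out, a group of 2 held a single library, whose spread was taken to be that of the other groups.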

Additional observations from a re-analysis of the deposited data

Results flagged for a closer look

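The Nes transcript differed between Eed and Ezh2 cells at day 11, by -0.53 log2 units (Eed minus Ezh2), a difference between the effects of guides against 2 subunits of the same complex that passed its own test. All 3 Eed libraries (258 to 302 CPM) lay below the 3 Ezh2 libraries (334 to 489 CPM), and the highest of these, replicate 3, carried the call, which was lost without it (-0.37, adjusted p = 0.0757 by edgeR).

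The effect of Brd8 guides on Msi1 differed between days 11 and 7 by 0.40 log2 units in a test of the interaction. The Msi1 levels of Brd8 cells overlapped NT at day 7 (293 to 331 against 305 to 319 CPM) and lay above all NT libraries at day 11 (212 to 223 against 164 to 173 CPM), and the call held in 10 of 20 alternatives.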

How the results depend on the processing

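Of 176 values of a member in a comparison, 29 passed, and of these 16 passed in every alternative, 20 in every alternative except the Rn45s covariate, and 27 kept their sign in all. Of the 147 that did not pass, 124 passed in none. Over 2608 values under alternatives, 47 lost a call with the sign kept, 2 lost it with the sign turned and 49 gained one, and 111 changed sign with no call on either side, which was counted as no change. Calls that turned direction were Sox3 in NT at day 9 against day 7 (0.23) and Sox1 in NT at day 11 against day 7 (0.0603), both with the Rn45s covariate, and neither passed then. Why calls differed between settings was not tested.

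Counts of the 8 members called moved by over 1.5 times as follows. DESeq2 size factors gave 1 for Eed at day 7 (2 as reported) and 1 for the Eed change between days (0). The DESeq2 test gave 1 for Eed at day 9 (0), 2 for Nr6a1 at day 11 (0), 1 for the Eed change and 2 for the Brd8 change (1). No low-count filter gave 1 for Nr6a1 at day 7, Eed at day 9, Nr6a1 at day 11, Eed against Ezh2 at day 9 and the Nr6a1 change (0 each), 3 for Brd8 at day 9 (1), 3 for the Eed change (0) and 2 for the Brd8 change. The Rn45s covariate gave 2 for Brd8 at day 9, 3 for NT day 9 against 7 (5), 2 for the Eed change and 2 for the Brd8 change. Only the groups compared gave 1 for Ezh2 at day 7 (0), 2 for Brd8 at day 7 (1), 2 for Brd8 at day 9, 2 for the Eed change and 2 for the Brd8 change. Leaving out the low-agreement libraries gave 0 for the Brd8 change, which then had no call by edgeR.

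With 1 library left out at a time, the members called ranged from 1 to 2 for Eed at day 7, 0 to 1 for Eed at day 9, 3 to 4 for Eed at day 11, 1 to 3 for Ezh2 at day 11, 0 to 2 for Nr6a1 at day 11, 3 to 5, 2 to 3 and 5 to 6 for NT (day 9 against 7, 11 against 9 and 11 against 7), 0 to 1 for Eed against Ezh2 at day 11, and 0 to 1, 0 to 1 and 0 to 2 for the Eed, Ezh2 and Brd8 changes between days. Brd8 against NT stayed at 1, 1 and 3 at days 7, 9 and 11, and the other comparisons at 0.

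Replicate numbers did not pair the libraries: in 14 comparisons with 3 shared numbers, none had every correlation of deviations over 0.1, and r ranged from -0.0310 to 0.104. With the replicate number as a block, 2 members were called for the Brd8 change between days (Msi1 and Sox1, the latter at -0.64, adjusted p = 0.0388), and Sox2 passed in NT at day 9 against day 7 (0.26, adjusted p = 0.0369).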
